A study of Homo sapiens with 6 samples.

Results

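The genes described here are 36 genes of protein folding, disulfide formation, translocation and degradation in the endoplasmic reticulum, outside the HSP70 family. They were chosen by name and known role, with no threshold on a measured value but with earlier results of these data known. Shares among them set beside those of all genes are therefore a description. All 36 were found among the 58735 genes of the deposited table. Mean FPKM (fragments per kilobase of exon, with a scaling factor per library as deposited) was 1 or more in 35 of the 36, and these were tested among 12960 genes. DERL3 lay below that level. The cells were C4-2B MDVR, a human prostate cancer line derived from C4-2B and resistant to enzalutamide, an antagonist of the androgen receptor. PTUPB inhibits both cyclooxygenase-2 and soluble epoxide hydrolase. Each of 6 groups was treated for 2 days and had 1 library. The groups were a DMSO control, enzalutamide at 20 uM, PTUPB at 10 uM, PTUPB at 20 uM, PTUPB at 10 uM plus enzalutamide, and PTUPB at 20 uM plus enzalutamide. The enzalutamide dose of the combinations is not labelled and was taken to equal that of the single agent. All values come from a single cell line, and no difference between 2 libraries has a replicate check.

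Secreted and membrane proteins enter the endoplasmic reticulum through the SEC61 channel, lose their signal peptide and fold there with the help of chaperones, disulfide isomerases and lectins. Chains that fail to fold are trimmed, recognised by lectins, passed back through the membrane and degraded by the proteasome, a route called reticulum-associated degradation. When unfolded chains build up, the sensors IRE1 (encoded by ERN1), PERK and ATF6 raise the transcription of many of these genes, which is known as the unfolded protein response. Luminal cells of the prostate are secretory and depend on this machinery.

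Library depth, recovered as whole fragments from the deposited values, ran from 20156523 to 29450436 fragments. The luminal identity of the prostate line was checked on 12 markers, of which all 12 reached 1 FPKM in some library and 10 did so in every library. Their summed level was 1224 to 1379 FPKM in the 4 libraries without 20 uM PTUPB, and 695 and 734 in the 20 uM libraries without and with enzalutamide. KLK3, the secreted kallikrein of luminal cells, was at 0.648 and 0.458 FPKM in the 20 uM libraries and at 19.0 to 105 in the others, while CDH1 was at 357 and 391 against 154 to 259. The markers read for basal epithelium, blood and endothelium stayed under 1 FPKM in every library, and of 5 stromal markers only COL1A1 exceeded 1 FPKM. The lower luminal sum moves with the 20 uM results below, and its part in them was not tested. Fewer cells of a kind and less RNA per cell cannot be told apart in such bulk libraries. The summed FPKM of all genes ran from 264004 in control and 266625 with 20 uM PTUPB to 355658 with enzalutamide. The control library also stood apart for these genes. It held the lowest level of 30 of the 36, against 13.6% of all tested genes. After rescaling to TPM (each library to the same sum) it held the lowest of only 7, and scaled by total fragments of 22.

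In level per exon length the most abundant members in control were CALR at 466 FPKM, HSP90B1 at 391, P4HB at 214 and PDIA3 at 211, all chaperones or isomerases of the lumen. The top 3 members together made up 41.0% of the summed level of the 36 genes in that library. At the low end stood DERL3 at 0.449 FPKM, SEC24D at 2.79, ERO1B at 8.805 and ERN1 at 9.004. The share of all fragments that fell on the 36 genes was 1.23% in control, 1.38% with enzalutamide, 1.59% with 10 uM PTUPB and 1.45% with the low-dose combination. It was 1.95% with 20 uM PTUPB and 2.48% with 20 uM PTUPB plus enzalutamide, so both 20 uM libraries lay above the other 4. In the summed FPKM the share was 0.989%, 0.937%, 1.09% and 0.929% in the 4 lower libraries and 1.52% and 1.88% at 20 uM. The plot of levels by library shows where each gene stood.

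**Figure D1:**
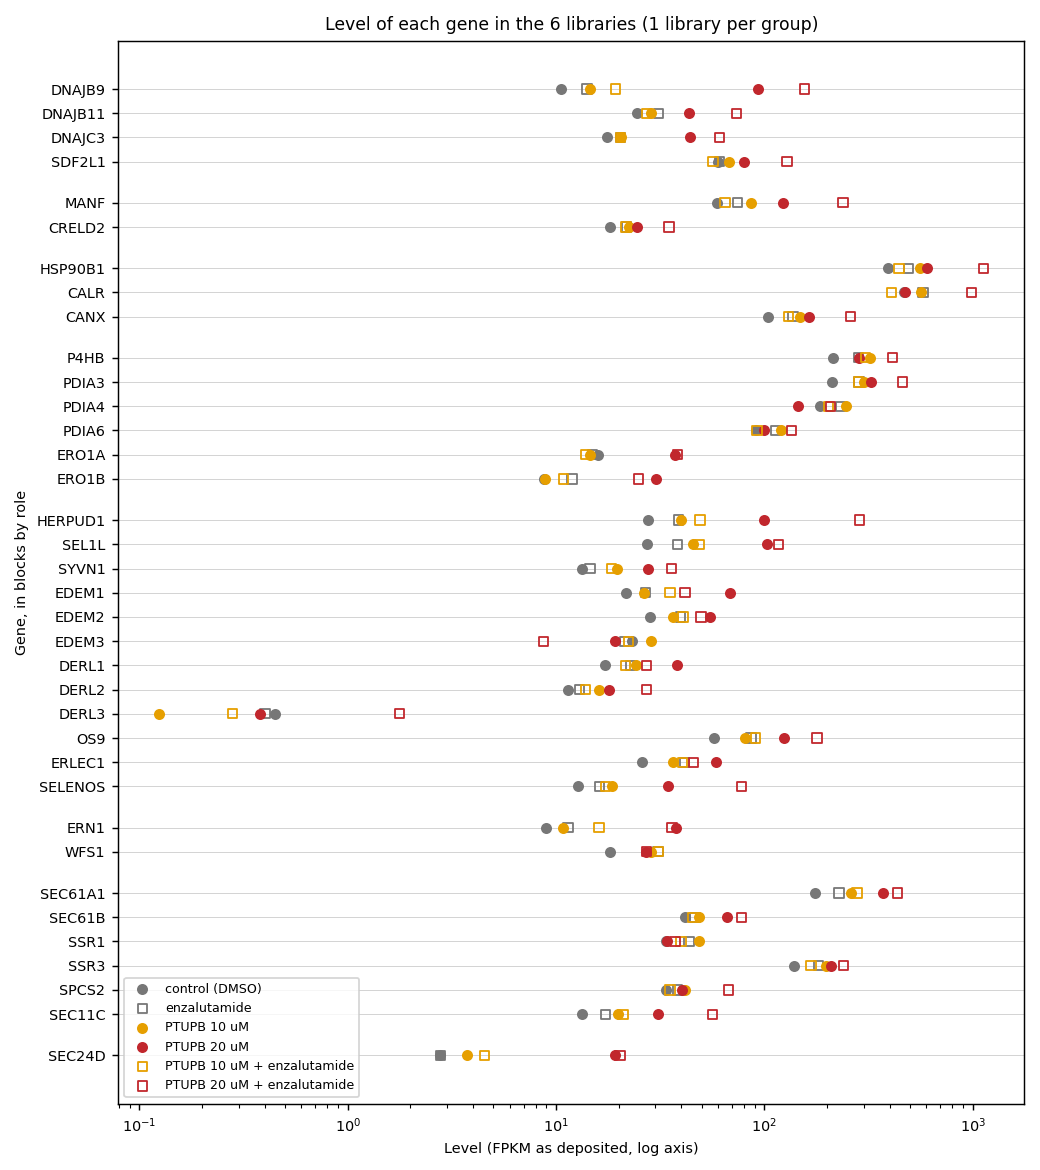
Level of each of the 36 genes (FPKM as deposited, log axis) in the 6 libraries, with genes in blocks by role; circles are libraries without enzalutamide and open squares with it, grey without PTUPB, orange at 10 uM and red at 20 uM. For 27 genes both red points lie to the right of the other 4, and for EDEM3 both lie to the left.

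At 20 uM PTUPB, 18 of the 35 tested genes rose and 0 fell in the additive fit over all 6 libraries (limma, adjusted p under 0.05), while 17 did not pass. Risers were the degradation genes HERPUD1, SELENOS, SEL1L, SYVN1, EDEM1, OS9 and DERL2, the J-domain genes DNAJB9, DNAJC3 and DNAJB11, the oxidase genes ERO1A and ERO1B, the translocation genes SEC11C, SEC61A1 and SEC61B, and MANF, ERN1 and SEC24D. Among all 12960 genes tested, 15.9% rose and 18.2% fell. The median effect of the 35 was 0.81 on the log2(FPKM + 1) scale, beside 0.00 for all genes, with 32 values above 0 and 3 below. Both 20 uM libraries lay above all 4 others for 27 of the 35, against 30.3% of all tested genes, and below them for 1, against 29.5%. The error behind these p-values comes from departures from additivity over single libraries, with 2 residual degrees of freedom, and not from replicate spread. Without the control library 4 of the 35 rose (DNAJB9, SEC24D, HERPUD1 and ERN1), without the enzalutamide library 2 (DNAJB9 and SEC24D), and with no filter on low values 7.

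**Figure D2:**
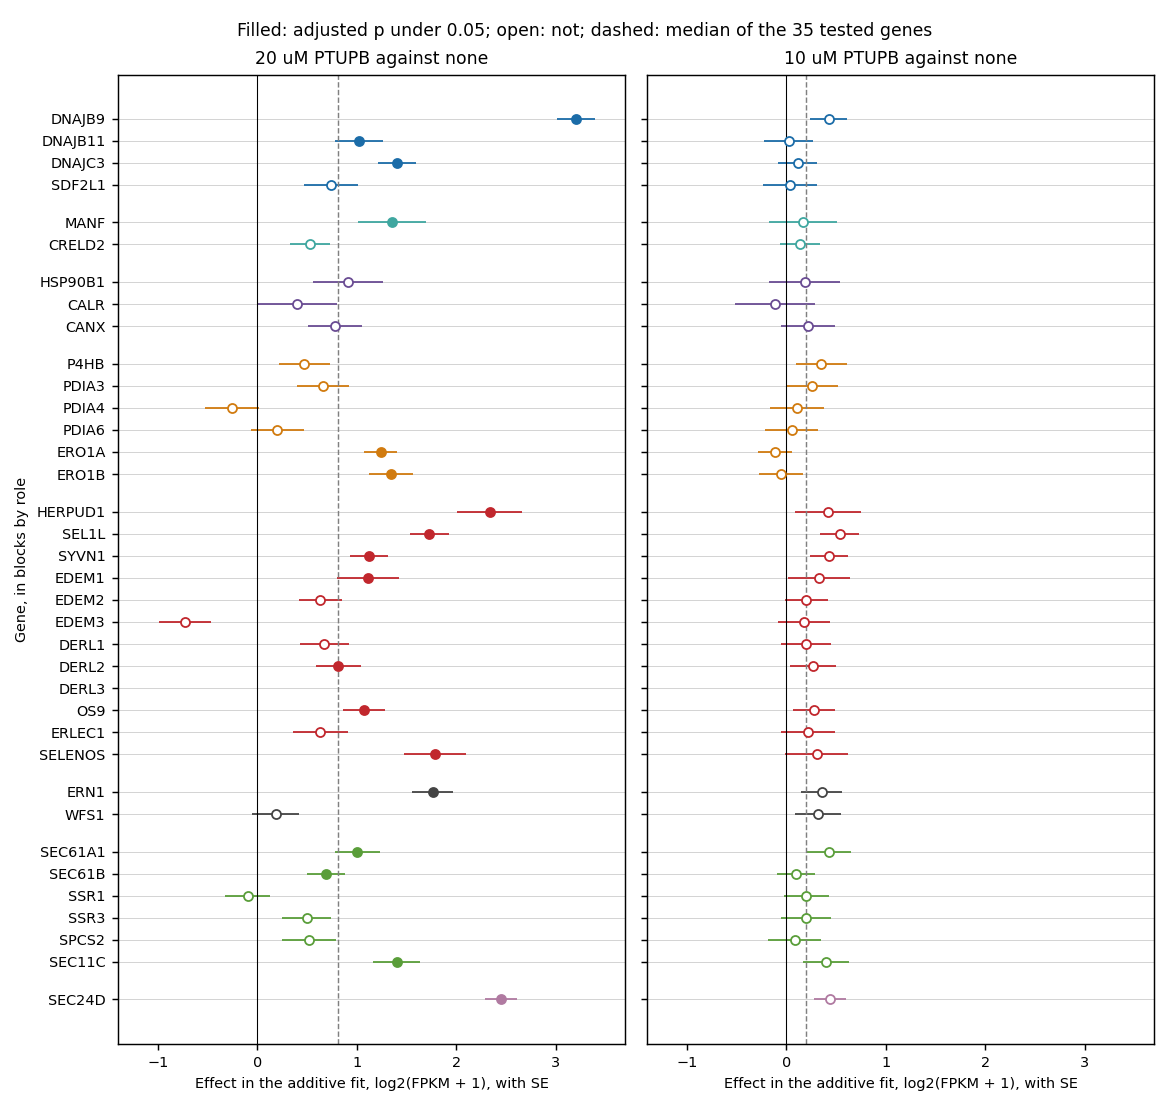
Effect of 20 uM (left) and 10 uM (right) PTUPB on each tested gene in the additive fit over 6 libraries, in log2(FPKM + 1) with its standard error; filled points have an adjusted p under 0.05. The 18 filled points are all on the left panel and above 0, and the dashed medians stand at 0.81 and 0.20.

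Promoters of the members were searched for known stress-responsive elements. The members were chosen by role in this pathway, so the shares below are a description and not an independent test. RefSeq windows (GRCh38.p14, 250 bases before to 50 after each start) were available for 32 members by symbol, and PDIA3, SEC24D, DERL1 and DERL3 had none in the table. The endoplasmic reticulum stress element, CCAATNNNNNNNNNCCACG on either strand, was found in 6 of 32 members (18.8%), against 25 of all 27305 symbols in the table (0.0916%). The shorter element ATTGGNCCACG was found in 2 of 32 (6.25%), against 0.0696% of all symbols. Its first 5 letters are the reverse complement of the CCAAT box, and no member held both elements. The matches are in capitals, 5′ to 3′ on the strand of the gene, and are shown because these 8 genes include both risers and genes that did not pass. Matches that read on the opposite strand of the gene start with CGTGG.

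CALR, chr19:12938364-12938422, plus strand: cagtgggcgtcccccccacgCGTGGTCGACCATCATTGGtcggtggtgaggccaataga
CRELD2, chr22:49918534-49918592, plus strand: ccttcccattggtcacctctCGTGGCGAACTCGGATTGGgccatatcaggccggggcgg
CANX, chr5:179698773-179698801, plus strand: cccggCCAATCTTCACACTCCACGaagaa
HSP90B1, chr12:103930211-103930239, plus strand: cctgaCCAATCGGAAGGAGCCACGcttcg
HSP90B1, chr12:103930316-103930344, plus strand: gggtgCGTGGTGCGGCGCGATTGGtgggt
PDIA6, chr2:10812848-10812876, minus strand: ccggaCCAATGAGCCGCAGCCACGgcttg
ERO1B, chr1:236282163-236282208, minus strand: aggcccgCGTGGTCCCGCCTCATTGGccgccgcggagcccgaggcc
SDF2L1, chr22:21642094-21642144, plus strand: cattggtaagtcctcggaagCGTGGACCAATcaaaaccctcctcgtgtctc
HERPUD1, chr16:56932020-56932040, plus strand: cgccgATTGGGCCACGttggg

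HSP90B1 carried 2 matches in its window and the others 1 each. Of the 6 genes with the longer element only ERO1B rose at 20 uM, and CALR, CANX, CRELD2, HSP90B1 and PDIA6 did not pass. Of the pair with the shorter element HERPUD1 rose and SDF2L1 did not pass. The core TGACGTG was found at SEC61A1, which rose, and at SSR3, which did not pass, against 2.40% of all symbols. TGATGNAA, the core of the C/EBP-ATF element, was found at HERPUD1 alone, against 4.46% of all symbols. DNAJB9, the member with the largest effect, held none of these 4 letter patterns in its window. A match is a description of letters and not a site in use.

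The J-domain co-chaperones, which stimulate the ATPase of the reticulum HSP70, held the largest effect of all members. DNAJB9 (ENSG00000128590, chromosome 7, 108569568 to 108574850 on GRCh38), a co-chaperone that also restrains IRE1, stood at 10.6 FPKM in control, 14.1 with enzalutamide, 14.5 and 93.6 with 10 and 20 uM PTUPB, and 19.2 and 156 with these doses plus enzalutamide. Both 20 uM values lay far above the other 4, at 8.82-fold and 11.1-fold the level without PTUPB, without and with enzalutamide. Its effect was 3.20 (SE 0.19, adjusted p = 0.0021), and it passed under all 13 alternative settings. DNAJC3, which also dampens PERK, stood at 17.5, 20.6 and 43.9 FPKM at 0, 10 and 20 uM PTUPB without enzalutamide and 20.5, 20.5 and 60.8 with it, an effect of 1.40 (SE 0.20, adjusted p = 0.0067). DNAJB11, a co-chaperone that binds unfolded chains directly, stood at 24.4, 28.7 and 43.7 FPKM at 0, 10 and 20 uM PTUPB without enzalutamide and 31.00, 27.1 and 73.7 with it, an effect of 1.02 (SE 0.24, adjusted p = 0.027). In both genes the 4 lower libraries sat close together and the 20 uM libraries stood apart, higher with enzalutamide than without. SDF2L1, a soluble partner of DNAJB11, stood at 59.9, 68.00 and 80.2 FPKM at 0, 10 and 20 uM PTUPB without enzalutamide and 61.1, 56.7 and 128 with it and did not pass at 0.74 (SE 0.27, adjusted p = 0.087). Its level at 20 uM without enzalutamide was only 1.34-fold that of control. SDF2L1 passed after rescaling to TPM and by limma-voom on recovered fragments.

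MANF, a small soluble protein of the lumen that is released from stressed cells, and CRELD2, another stress-induced soluble protein, differed in size of change. For MANF the libraries read 59.4, 85.9 and 123 FPKM at 0, 10 and 20 uM PTUPB without enzalutamide and 74.4, 64.8 and 239 with it. Its effect was 1.35 (SE 0.34, adjusted p = 0.032), and the call was lost without the control, the enzalutamide or the high-dose combination library and with no filter. For CRELD2 they read 18.2, 22.3 and 24.5 FPKM at 0, 10 and 20 uM PTUPB without enzalutamide and 21.9, 21.7 and 34.8 with it, with both 20 uM values highest but an effect of only 0.53 (SE 0.20, adjusted p = 0.093).

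None of the 3 abundant chaperones of the HSP90 and lectin class passed. HSP90B1, the reticulum member of the HSP90 family, stood at 391, 559.6 and 604 FPKM at 0, 10 and 20 uM PTUPB without enzalutamide and 493, 443 and 1124 with it, an effect of 0.91 (SE 0.35, adjusted p = 0.099). The high-dose combination was about 1.86-fold the 20 uM library, and the other 5 libraries lay within a narrower band. CALR, the soluble lectin chaperone calreticulin, stood at 466, 563 and 472 FPKM at 0, 10 and 20 uM PTUPB without enzalutamide and 578, 408 and 989 with it. At 20 uM without enzalutamide CALR was level with control, and its effect of 0.40 (SE 0.40, adjusted p = 0.47) rested on the combination, since without that library it was -0.17. CANX, the membrane-bound lectin chaperone calnexin, stood at 104, 149 and 163 FPKM at 0, 10 and 20 uM PTUPB without enzalutamide and 137, 131 and 259 with it, an effect of 0.78 (SE 0.27, adjusted p = 0.076). HSP90B1 and CANX passed after rescaling to TPM and by limma-voom on recovered fragments, CANX also scaled by total fragments, and CALR in no setting. Reads of HSP90B1 may be shared with its pseudogene copies.

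Among disulfide enzymes the oxidases rose and the isomerases did not pass in the main fit. ERO1A, which reoxidises protein disulfide isomerase, stood at 15.98, 14.5 and 37.2 FPKM at 0, 10 and 20 uM PTUPB without enzalutamide and 14.9, 13.9 and 38.4 with it, an effect of 1.24 (SE 0.17, adjusted p = 0.0065). Its 4 lower libraries spanned 13.9 to 15.98 FPKM and its 20 uM libraries agreed closely. ERO1B, the second oxidase of this kind, stood at 8.805, 8.83 and 30.4 FPKM at 0, 10 and 20 uM PTUPB without enzalutamide and 11.9, 10.9 and 24.98 with it, an effect of 1.34 (SE 0.22, adjusted p = 0.01). Unlike most members it was lower with enzalutamide than without at 20 uM. The main isomerase gene P4HB stood at 214, 321 and 285 FPKM at 0, 10 and 20 uM PTUPB without enzalutamide and 283, 307 and 411 with it, an effect of 0.47 (SE 0.26, adjusted p = 0.20). PDIA3, the isomerase that partners the lectin chaperones, stood at 211, 302 and 325 FPKM at 0, 10 and 20 uM PTUPB without enzalutamide and 285, 283 and 461 with it, an effect of 0.66 (SE 0.26, adjusted p = 0.10). The isomerase PDIA6 stood at 91.1, 120.2 and 100.2 FPKM at 0, 10 and 20 uM PTUPB without enzalutamide and 113, 92.3 and 135 with it, an effect of 0.20 (SE 0.27, adjusted p = 0.59). PDIA3 passed after rescaling to TPM, with an effect of 0.70, but not by limma-voom on recovered fragments. For P4HB and PDIA6 the 20 uM libraries overlapped the others, and for PDIA3 they lay just above them. PDIA4, a further isomerase, lay on the other side at 186, 245 and 145 FPKM at 0, 10 and 20 uM PTUPB without enzalutamide and 233, 203 and 208 with it, an effect of -0.26 (SE 0.27, adjusted p = 0.49) in which 20 uM without enzalutamide was the lowest library.

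Degradation genes formed the largest block, in which 7 of 11 tested rose, 0 fell and 4 did not pass, beside 15.9% rising and 18.2% falling of all genes. The median effect was 1.07, and 0.00 for all genes. HERPUD1 (ENSG00000051108, chromosome 16, 56932048 to 56944863), a membrane scaffold of the degradation complex, stood at 27.8 FPKM in control, 38.7 with enzalutamide, 39.7 and 100.1 with 10 and 20 uM PTUPB, and 49.1 and 287 with these doses plus enzalutamide. The 4 lower libraries spanned 27.8 to 49.1 FPKM, and 20 uM PTUPB gave 3.603-fold and 7.401-fold the level without it, without and with enzalutamide. The effect was 2.33 (SE 0.33, adjusted p = 0.0071). SEL1L, the adaptor that feeds substrates to the ligase, stood at 27.3, 45.6 and 103 FPKM at 0, 10 and 20 uM PTUPB without enzalutamide and 38.2, 48.8 and 116 with it, an effect of 1.73 (SE 0.20, adjusted p = 0.0047). SYVN1, the ubiquitin ligase HRD1 of the same complex, stood at 13.3, 19.6 and 27.7 FPKM at 0, 10 and 20 uM PTUPB without enzalutamide and 14.6, 18.5 and 35.7 with it, an effect of 1.12 (SE 0.19, adjusted p = 0.011). SELENOS, a membrane selenoprotein that recruits the extracting ATPase VCP, stood at 12.7, 18.7 and 34.6 FPKM at 0, 10 and 20 uM PTUPB without enzalutamide and 16.2, 17.3 and 77.6 with it, an effect of 1.78 (SE 0.31, adjusted p = 0.012). In SEL1L and SYVN1 the 2 high-dose libraries were similar, whereas in HERPUD1 and SELENOS the combination stood 2.86-fold and 2.24-fold the library without enzalutamide.

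The mannose-trimming EDEM genes did not move together. EDEM1 stood at 21.7, 26.6 and 68.7 FPKM at 0, 10 and 20 uM PTUPB without enzalutamide and 26.99, 35.3 and 41.6 with it, an effect of 1.11 (SE 0.31, adjusted p = 0.041), with the combination below 20 uM PTUPB alone. EDEM2 stood at 28.2, 36.4 and 55.1 FPKM at 0, 10 and 20 uM PTUPB without enzalutamide and 39.5, 40.7 and 49.7 with it, an effect of 0.63 (SE 0.22, adjusted p = 0.073). EDEM3 (ENSG00000116406, chromosome 1, 184690231 to 184754913) stood at 23.3, 28.7 and 19.3 FPKM at 0, 10 and 20 uM PTUPB without enzalutamide and 21.3, 22.3 and 8.71 with it. Both 20 uM values of EDEM3 were the lowest of the 6, and its effect of -0.73 (SE 0.26, adjusted p = 0.081) was the lowest among the members. By limma-voom on recovered fragments, and without the library of 20 uM PTUPB alone, EDEM3 passed as falling.

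The lectins OS9 and ERLEC1, which recognise trimmed glycans, and the derlins, membrane proteins of the exit channel, were mixed as well. OS9 stood at 57.6, 80.6 and 124 FPKM at 0, 10 and 20 uM PTUPB without enzalutamide and 86.3, 90.7 and 179 with it, an effect of 1.07 (SE 0.21, adjusted p = 0.016). ERLEC1 stood at 26.01, 36.3 and 58.3 FPKM at 0, 10 and 20 uM PTUPB without enzalutamide and 41.4, 40.4 and 45.5 with it, an effect of 0.63 (SE 0.27, adjusted p = 0.13), with 20 uM PTUPB alone above all others. DERL2 stood at 11.5, 16.00 and 18.05 FPKM at 0, 10 and 20 uM PTUPB without enzalutamide and 12.97, 13.8 and 27.2 with it, an effect of 0.81 (SE 0.23, adjusted p = 0.042) that did not pass in 7 of the 13 alternatives. DERL1 stood at 17.3, 24.2 and 38.3 FPKM at 0, 10 and 20 uM PTUPB without enzalutamide and 22.7, 21.6 and 27.1 with it, highest with 20 uM PTUPB alone. Its effect was 0.67 (SE 0.25, adjusted p = 0.086). DERL3 was not tested. It held 51, 14 and 34 fragments at 0, 10 and 20 uM PTUPB without enzalutamide and 43, 28 and 124 with it, and 77.0% of its exon bases overlap SMARCB1 on the opposite strand.

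ERN1, which encodes the sensor IRE1, stood at 9.004, 10.9 and 37.6 FPKM at 0, 10 and 20 uM PTUPB without enzalutamide and 11.4, 16.1 and 36.01 with it, an effect of 1.76 (SE 0.21, adjusted p = 0.0048). The 20 uM libraries were close to each other and above every other library. WFS1, a reticulum membrane glycoprotein lost in Wolfram syndrome, stood at 18.2, 28.5 and 26.9 FPKM at 0, 10 and 20 uM PTUPB without enzalutamide and 30.9, 31.1 and 27.2 with it, an effect of 0.18 (SE 0.23, adjusted p = 0.57), and only its control library was apart, below the other 5. XBP1 and ATF4, transcription factor genes downstream of IRE1 and PERK, and the sensor gene ATF6 were measured alongside. XBP1, whose mRNA is spliced by IRE1, rose by 0.89 (SE 0.24, adjusted p = 0.035) and ATF6 by 1.07 (SE 0.29, adjusted p = 0.036). ATF4, which is mainly controlled by translation, was at 0.39 (SE 0.22, adjusted p = 0.22). Spliced and unspliced XBP1 cannot be told apart in values per gene.

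Of 6 genes for translocation and signal peptide removal 3 rose and 3 did not pass, where 15.9% of all genes rose. SEC11C, a catalytic subunit of signal peptidase, stood at 13.4, 19.8 and 30.96 FPKM at 0, 10 and 20 uM PTUPB without enzalutamide and 17.3, 20.97 and 56.3 with it, an effect of 1.40 (SE 0.23, adjusted p = 0.01). SEC61A1, the pore subunit of the channel, stood at 175, 261 and 371 FPKM at 0, 10 and 20 uM PTUPB without enzalutamide and 229, 278 and 437 with it, an effect of 1.00 (SE 0.23, adjusted p = 0.023). SEC61B, a small channel subunit, stood at 41.7, 48.6 and 66.2 FPKM at 0, 10 and 20 uM PTUPB without enzalutamide and 46.5, 45.5 and 77.6 with it, an effect of 0.69 (SE 0.19, adjusted p = 0.042). In all 3 the 20 uM libraries were the highest, and SEC61B had the smallest effect. SSR1 and SSR3 encode subunits of the translocon-associated protein complex. For SSR1 the libraries read 33.7, 48.8 and 34.1 FPKM at 0, 10 and 20 uM PTUPB without enzalutamide and 43.5, 39.8 and 37.3 with it, an effect of -0.10 (SE 0.22, adjusted p = 0.75). For SSR3 they read 138, 197 and 209 FPKM at 0, 10 and 20 uM PTUPB without enzalutamide and 182, 168 and 239 with it, an effect of 0.50 (SE 0.25, adjusted p = 0.17). SPCS2, an accessory subunit of signal peptidase, read 33.9, 41.5 and 40.2 FPKM at 0, 10 and 20 uM PTUPB without enzalutamide and 38.5, 35.3 and 67.5 with it, an effect of 0.52 (SE 0.27, adjusted p = 0.19), with only the high-dose combination apart.

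SEC24D (ENSG00000150961, chromosome 4, 118722823 to 118838683), a cargo-binding protein of the COPII coat that buds vesicles from the reticulum, had the second largest effect. It stood at 2.79 FPKM in control, 2.79 with enzalutamide, 3.74 and 19.1 with 10 and 20 uM PTUPB, and 4.55 and 20.3 with these doses plus enzalutamide. These are low levels with a wide gap, the 20 uM libraries being 6.87-fold and 7.28-fold the level without PTUPB, and differing between them by 0.08 on the log2 scale. Its effect was 2.45 (SE 0.16, adjusted p = 0.0023). SEC24D and DNAJB9 were the 2 of 18 risers that passed under all 13 alternatives.

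DNAJB9, HERPUD1, SEL1L, ERN1, SEC24D and 8 other members were higher at 20 uM by log2 1 or more both without and with enzalutamide. Against control, 17 of 35 were higher by log2 1 or more and 0 lower, where 9.47% and 12.7% of all genes were. With enzalutamide in both libraries, 17 were higher and 1, EDEM3, was lower, beside 13.5% and 15.8% of all genes. The medians of the 35 were 0.94 and 0.93, with -0.01 and 0.01 for all genes. These pairs share no library, but each is a single pair. Past the margin without enzalutamide only were EDEM1, DERL1, ERLEC1 and SEC61A1. Past it with enzalutamide only were DNAJB11, SDF2L1, HSP90B1 and DERL2 as higher. No gene passed the test of enzalutamide by PTUPB dose among the 12960 (0.0% by limma, 1219 at unadjusted p under 0.05, of which 2 members). Other settings called 2 rising and 21 falling genes (limma-voom) and 191 and 110 (TPM), none of them members, so no member is shown to respond differently.

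**Figure D3:**
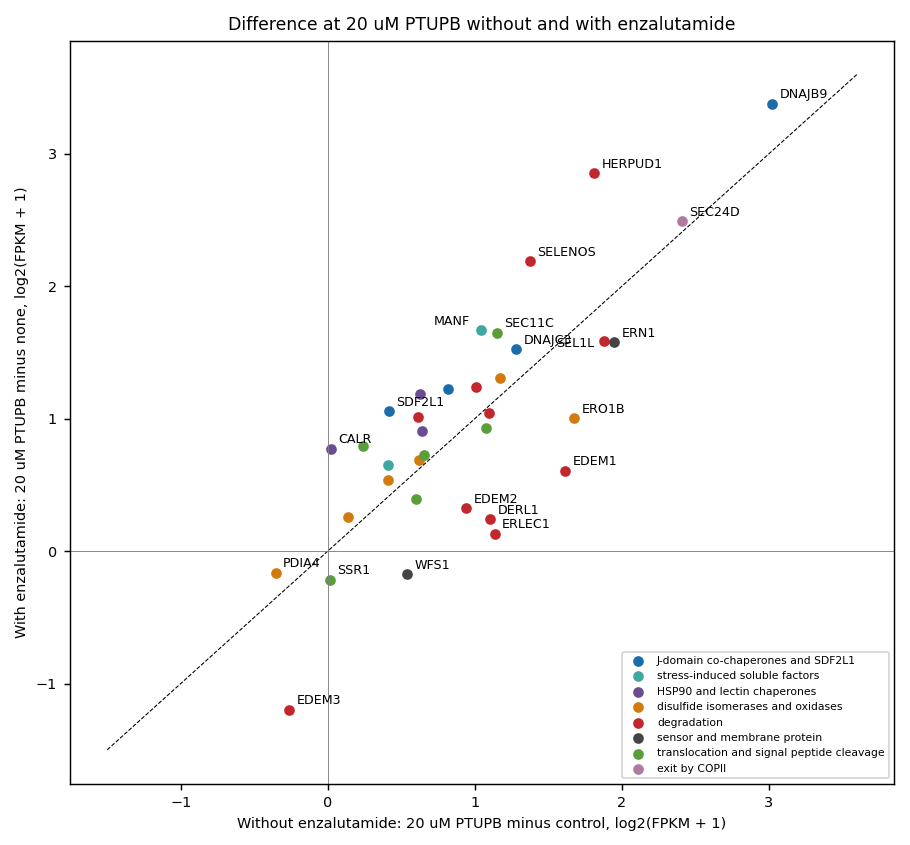
Difference between 20 uM and no PTUPB in log2(FPKM + 1) for each of the 35 tested genes, without enzalutamide (horizontal) and with it (vertical), coloured by role, with equal differences on the dashed line. DNAJB9 stands at the upper right (3.03 and 3.38), HERPUD1 above the line (1.81 and 2.86), EDEM1 below it (1.61 and 0.61) and EDEM3 below 0 on both axes.

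The 2 PTUPB doses were also compared directly, in the same fit. Of 35 tested members 14 rose from 10 to 20 uM and 1, EDEM3, fell, while 20 did not pass, beside 16.5% rising and 16.9% falling of all genes. This comparison shares both 20 uM libraries with the one above. DNAJB9 differed by 2.78 (SE 0.19, adjusted p = 0.0025), SEC24D by 2.01 (SE 0.16, adjusted p = 0.0031) and HERPUD1 by 1.92 (SE 0.33, adjusted p = 0.012), and EDEM3 by -0.91 (SE 0.26, adjusted p = 0.046). EDEM1, DERL2, SEC61A1 and SEC61B, which passed against no PTUPB, did not pass here, with differences of 0.79, 0.55, 0.58 and 0.60. The median over the 35 was 0.60 (all genes 0.02). In the single pair without enzalutamide, 9 members passed log2 1 upward and 0 downward (9.27% and 13.1% of all genes). With enzalutamide in both, 15 members passed log2 1 upward and 1 downward (13.7% and 14.7% of all genes). The risers numbered 5 without the 10 uM library, 3 without the low-dose combination, 9 without the control or without the enzalutamide library, and 5 with no filter, and EDEM3 did not pass in any of these fits. After rescaling to TPM 21 rose, and the median of all genes then stood at 0.17.

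At 10 uM PTUPB no member passed, nor did any of the 12960 genes (0.0% by limma, 480 at unadjusted p under 0.05, of which 2 members; 0 by limma-voom). Effects ran from -0.12 for ERO1A to 0.53 for SEL1L, with a median of 0.20 against -0.03 for all genes. Against control 34 of 35 differences were above 0 and the median was 0.45, but none reached log2 1, a margin that 2.39% of all genes reached in either direction. With enzalutamide in both libraries 17 were above 0 and 18 below, the median was -0.01, and again none reached log2 1 (3.81% of all genes). SEL1L was 1.67-fold control at 10 uM and 1.28-fold the enzalutamide library in the combination. After rescaling to TPM 23 and 22 of 35 were above 0 in these pairs, with medians of 0.17 and 0.06, beside -0.33 and 0.01 for all genes. Scaled by total fragments 33 and 23 were above 0, with medians of 0.36 and 0.096, beside -0.11 and 0.036 for all genes. The control library enters the former pair and was the lowest for 30 members as deposited.

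Enzalutamide gave no call either, among the members or in all genes (0.0% by limma, 626 at unadjusted p under 0.05, of which 2 members; 1 by limma-voom and, after rescaling to TPM, 2 rising and 7 falling, no member among them). The fitted values ran from -0.51 for EDEM3 to 0.76 for HERPUD1, with a median of 0.23 (all genes 0.01). After rescaling to TPM that median was -0.03, beside -0.23 for all genes. In the single pairs the median was 0.33 without PTUPB, -0.08 at 10 uM and 0.46 at 20 uM, and 33, 13 and 28 of 35 differences were above 0. After TPM the medians were -0.08, -0.13 and 0.15 and 8, 13 and 20 were above 0, while the medians of all genes moved from 0.00, -0.01 and 0.04 to -0.41, -0.05 and -0.24. The sign without PTUPB thus turned after TPM, with a shift of all genes. Scaled by total fragments it did not turn, at a median of 0.15 with 27 of 35 above 0 (all genes -0.16). In that pair the members' median lay above that of all genes in each of these scalings. None reached log2 1 without PTUPB or at 10 uM (2.69% and 3.42% of all genes did). At 20 uM 3 were higher, HERPUD1 at 1.51, SELENOS at 1.14 and CALR at 1.06, and EDEM3 was lower at -1.06 (6.74% of all genes in either direction). Scaled to TPM or by total fragments, only HERPUD1 was higher by that margin.

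By role, most blocks were higher with enzalutamide in the high-dose pair as deposited, and the degradation and sensor blocks were mixed. All 3 HSP90 and lectin chaperones (median 0.89), all 4 genes of the J-domain block (median 0.70) and both soluble stress factors were higher with enzalutamide at 20 uM, as were all 6 translocation genes (median 0.23) and 5 of 6 disulfide genes (median 0.47). Of 11 degradation genes 6 were higher and 5 lower (median 0.18), the lower ones being EDEM1, EDEM2, EDEM3, DERL1 and ERLEC1. The all-gene median of this pair was 0.04 as deposited, -0.24 after TPM and -0.12 by total fragments. Under these 2 scalings the chaperones and soluble factors were still above 0. The degradation median, at -0.14 and -0.03, stayed above that of all genes. Of the translocation genes 2 and 4 of 6 were then above 0, with medians of -0.09 and 0.02. ERN1 was lower and WFS1 higher as deposited (median -0.02), and both were below 0 under these scalings, with medians of -0.34 and -0.23. SEC24D was at 0.08 as deposited, and at -0.23 after TPM and -0.12 by total fragments. These are differences between 2 libraries and carry no test.

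**Figure D4:**
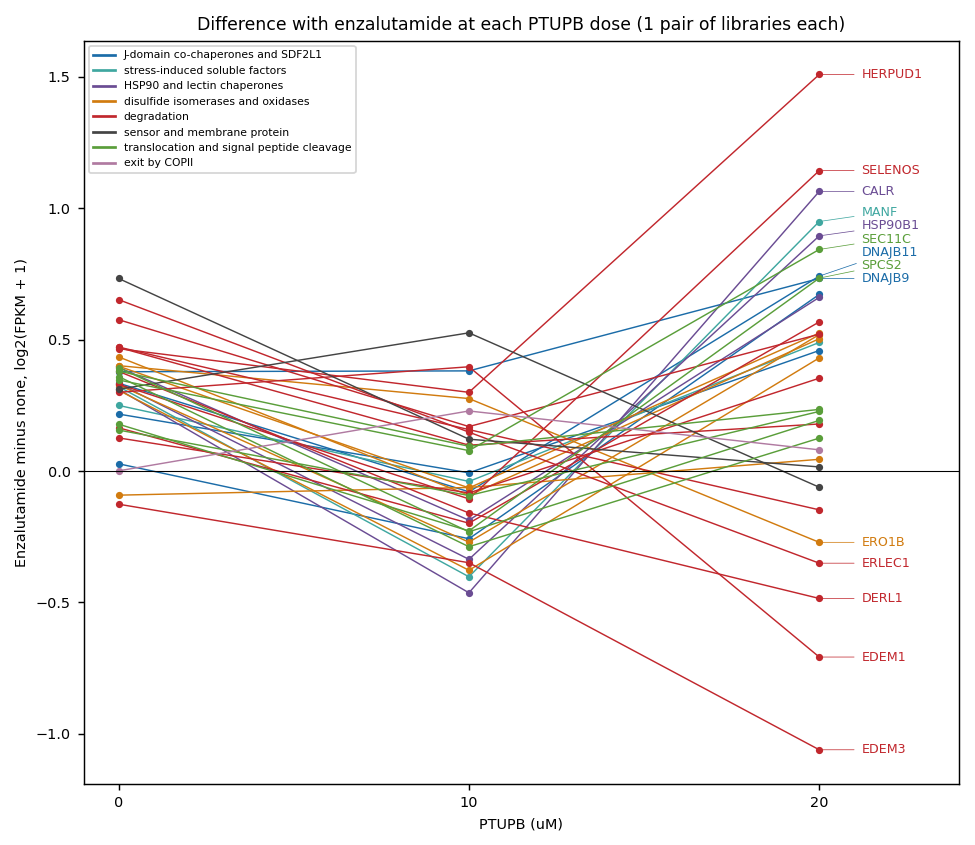
Difference with enzalutamide in log2(FPKM + 1) for each of the 35 tested genes at 0, 10 and 20 uM PTUPB, each point being 1 pair of libraries, coloured by role. At 20 uM HERPUD1, SELENOS and CALR reach 1 or more and EDEM3 lies below -1.

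The other genes of the pathway were read from 8 lists of 105 genes, 104 of them tested. At 20 uM PTUPB 20 rose, 7 fell and 77 did not pass, with a median of 0.21. Of all tested genes 15.9% rose and 18.2% fell, so the rising count is near that background, which also stands beside each block count that follows. Translocon and signal recognition genes rose in 7 of 20 cases and fell in 1. SRPRA, a subunit of the receptor for signal recognition particle, rose by 1.66 (SE 0.24, adjusted p = 0.0075), and SRP54, the particle's signal-binding subunit, by 1.19 (SE 0.21, adjusted p = 0.012), whereas TRAM2 was at -0.90 (SE 0.24, adjusted p = 0.036). Of 14 COPII and retrieval genes 5 rose and 0 fell, led by the coat genes SEC13 at 1.48 (SE 0.25, adjusted p = 0.011) and SEC23B at 1.45 (SE 0.22, adjusted p = 0.0082). In the lectin cycle 2 of 9 rose and 0 fell, namely the calnexin-like chaperone CLGN at 1.75 (SE 0.20, adjusted p = 0.0045) and the cargo receptor LMAN1 at 1.40 (SE 0.23, adjusted p = 0.01). CLGN read 31.6, 60.9 and 120.2 FPKM at 0, 10 and 20 uM PTUPB without enzalutamide and 41.5, 65.2 and 128 with it, with the 10 uM levels in between.

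Other disulfide isomerases (14 tested) gave 1 riser, ERP44, which retains ERO1 oxidases in the early secretory route, at 1.91 (SE 0.23, adjusted p = 0.005), and 1 faller, the membrane thioredoxin TMX1, at -0.98 (SE 0.24, adjusted p = 0.028). ERP44 read 17.1, 28.1 and 66.1 FPKM at 0, 10 and 20 uM PTUPB without enzalutamide and 25.5, 27.2 and 101 with it. Other degradation genes (20) gave 2 risers, the ligase gene RNF185 at 1.87 (SE 0.22, adjusted p = 0.0047) and the deglycosylase gene NGLY1 at 0.92 (SE 0.17, adjusted p = 0.013), and 1 faller, the conjugating enzyme gene UBE2G2, at -0.61 (SE 0.16, adjusted p = 0.036). Among 10 further co-chaperones and factors DNAJC1, a membrane J-domain protein, rose by 2.17 (SE 0.27, adjusted p = 0.0052) and the nucleotide exchange factor SIL1 by 0.74 (SE 0.19, adjusted p = 0.034), while SDF2, a paralog of SDF2L1, fell, at -0.94 (SE 0.27, adjusted p = 0.045). Only STT3A, a catalytic subunit, rose among 10 oligosaccharyltransferase genes, at 0.82 (SE 0.21, adjusted p = 0.034). Of 7 prolyl isomerases 3 fell and 0 rose (18.2% and 15.9% of all genes), with FKBP9 at -1.56 (SE 0.33, adjusted p = 0.019) and FKBP10 at -1.53 (SE 0.20, adjusted p = 0.0063). FKBP10, a collagen-folding isomerase, read 72.8, 103 and 28.4 FPKM at 0, 10 and 20 uM PTUPB without enzalutamide and 98.4, 109 and 29.1 with it, so that its levels at 10 uM were above those without PTUPB and its 20 uM levels below.

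A mean profile of the 35 tested members (mean z-score of log2(FPKM + 1) in each of 6 libraries) was compared with every other tested gene. The 5 genes outside the members with the highest Pearson correlation to that profile were PTS (0.996), TVP23B (0.994), RBM48 (0.993), SLC38A4-AS1 (0.993) and YIPF5 (0.993). The correlations run over 6 libraries, and the depth and scaling of each library enter the values of all genes. PTS, an enzyme gene of tetrahydrobiopterin synthesis, read 6.71, 8.34 and 10.3 FPKM at 0, 10 and 20 uM PTUPB without enzalutamide and 7.87, 7.895 and 12.2 with it. YIPF5, a membrane protein gene of the early secretory route, read 14.7, 20.5 and 29.9 FPKM at 0, 10 and 20 uM PTUPB without enzalutamide and 20.6, 18.7 and 37.9 with it. In both genes control was lowest and the 20 uM libraries were highest, and no test is attached.

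Exon bases shared with another annotated gene are a limit on single values. In 18 of 36 members some exon bases overlap a gene on the opposite strand, and in 4 of these (DNAJB11, HSP90B1, SYVN1 and SSR1) also a gene on the same strand. Over 20% of exon bases are shared, on either strand, in DNAJB11, PDIA6 and DERL3. No source used here says whether reads were assigned by strand.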

How the data were processed

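Values were deposited as FPKM per gene for 58735 genes in 6 libraries made from total RNA. HISAT and Cufflinks are named, without versions, in the submitters' processing notes, and the genome build and strand setting are not given in the sources used here. The gene IDs matched GENCODE 29 (58735 of 58735), and its exon lengths turned each deposited FPKM value into whole fragments within a tolerance of 0.05 for 100% of values, which gave the depth. From the values, the library scaling within the deposited FPKM follows median-of-ratios size factors and not total fragments. Counting error follows from that depth, and no group has a replicate.

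The main fit was limma 3.58.1 in R 4.3.3 on log2(FPKM + 1), a scale that understates the change of low genes, for genes with a mean of 1 FPKM or more. It held 3 levels of PTUPB and enzalutamide as additive terms over all 6 libraries, with an intensity trend and Benjamini-Hochberg adjustment over 12960 genes (called under 0.05). A second model held enzalutamide by linear PTUPB dose, with 1 residual degree of freedom. Pairs of libraries were described at a margin of log2 1. The alternatives were a pseudocount of 0.1, no filter, TPM, median-of-ratios scaling, no trend, limma-voom on recovered fragments and leaving out each library, and scaling by total fragments was added after the data were seen. The fits were tested on simulated data. Genes were named as all members, the 2 risers and fallers with the largest effects of each pathway list, 3 regulators and the 5 genes nearest the members' mean profile. The members and lists were chosen with earlier results of these data known. Promoter windows came from RefSeq on GRCh38.p14. Python 3.11.15 was used for the tables.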

Additional observations from a re-analysis of the deposited data

Results flagged for a closer look

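In 4 members the difference with enzalutamide was above 0.25 without PTUPB and below -0.25 at 20 uM PTUPB, on the log2(FPKM + 1) scale. ERO1B, the oxidase gene, differed by 0.40 and -0.27. EDEM1, for mannose trimming, differed by 0.30 and -0.71. DERL1, a derlin gene, differed by 0.38 and -0.485. ERLEC1, a lectin gene of degradation, differed by 0.65 and -0.35. Each value is 1 pair of libraries, and the test of enzalutamide by linear PTUPB dose called none of the 35 members (limma), so the change of sign was not shown by a test. After rescaling to TPM the values without PTUPB were 0.01, -0.12, -0.03 and 0.24 in the same order, and those at 20 uM were -0.59, -1.03, -0.81 and -0.67. Scaled by total fragments they were 0.23, 0.12, 0.20 and 0.47 without PTUPB and -0.48, -0.92, -0.69 and -0.56 at 20 uM. These scalings move all genes alike. The median of all genes without PTUPB was 0.00 as deposited, -0.41 after TPM and -0.16 by total fragments, and at 20 uM it was 0.04, -0.24 and -0.12.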

How the results depend on the processing

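No paired analysis was possible because each group has 1 library. At 20 uM PTUPB the count of rising members (18) was 17 to 24 under the other scalings, pseudocount, trend and limma-voom, 7 with no filter on low values, and 2 to 21 when 1 library was left out. Falling members numbered 0, but 1 by limma-voom, and 0 to 1 with a library left out. Over all genes, 544 rose and 657 fell with no filter, and 115 to 2685 rose and 209 to 2718 fell with a library left out. From 10 to 20 uM, 5 members rose and 0 fell with no filter (425 and 443 of all genes), and 0 fell without the trend. With a library left out, 3 to 18 members rose and 0 to 1 fell, as did 351 to 2910 and 487 to 2681 of all genes. DNAJB9 and SEC24D kept their calls under all 13 alternatives in both comparisons. Enzalutamide called 2 rising and 7 falling genes after TPM and 1 falling by limma-voom. The dose interaction called 191 rising and 110 falling genes after TPM, 2 and 21 by limma-voom, and 6 and 3 by total fragments, none of them members. With 20 uM PTUPB in both libraries, enzalutamide put 1 member higher by log2 1 and 2 lower after TPM, and 1 higher by total fragments. The cause of these shifts was not tested. A fit with 1 library left out also has fewer residual degrees of freedom than the main fit. Some members without a call turned sign. At 20 uM, with a library left out, CALR ran from -0.17 (without the high-dose combination) to 0.97, PDIA6 from -0.035 (the same) to 0.43 and SSR1 from -0.32 to 0.12 (without the enzalutamide library). WFS1 was at -0.15 without control and -0.022 without the 20 uM library, and at most 0.52. From 10 to 20 uM, without the low-dose and the high-dose combination in turn, CALR was at -0.065 and -0.060, P4HB at -0.14 and -0.055, and PDIA6 at -0.23 and -0.089, and with other libraries left out they reached 1.09, 0.39 and 0.52. WFS1 was at 0.020 after TPM, and ran from -0.34 to 0.071 (without the high-dose combination). Depth limits only DERL3 among the members, at 0.12 to 1.78 FPKM.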
